A study of Mus musculus with 2 samples.

Results

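The transcripts described are those of 9 genes of the neutrophil and monocyte lineages, Mpo, Elane, Prtn3, Ctsg, Cebpa, Irf8, Spi1, Csf1r and Csf3r, whose low expression in uncommitted blood cells is often called myeloid priming. They were taken by name, whatever their values, from 53273 genes of the deposited tables. They were measured in 192 single cells from the bone marrow of C57BL/6 mice aged 8 weeks that carried the Fucci reporter, in which a green protein (mAG) joined to a piece of geminin is present while DNA is replicated and the cell divides, and an orange protein (mKO2) joined to a piece of Cdt1 accumulates before replication. The 4 sorting gates, mAG+, mKO2neg, mKO2low and mKO2high, held 48 cells each. The mAG+ and mKO2neg cells formed 1 library and the mKO2low and mKO2high cells the other, so that library and gate cannot be told apart when gates of different libraries are set side by side. All groups shared strain, age, tissue and reporter, and no further allele or agent is named. The sources name no animals, so each gate is 1 sample without replicates and no test of a difference between gates was possible.

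In the myeloid branch of blood formation, the transcription factors PU.1 (Spi1) and C/EBP alpha (Cebpa) prime multipotent cells for the granulocyte and monocyte fates, and IRF8 (Irf8) favours monocytes and dendritic cells over neutrophils. Committed progenitors then fill their primary granules with myeloperoxidase (Mpo) and the serine proteases neutrophil elastase (Elane), proteinase 3 (Prtn3) and cathepsin G (Ctsg). Survival and maturation depend on the receptors for M-CSF (Csf1r) and G-CSF (Csf3r).

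Prtn3 and Spi1 were counted in most cells of every gate, Csf3r in fewer and Irf8 in few. Mpo, Elane, Cebpa and Csf1r were counted in 7 cells or fewer of 192, and Ctsg in none. Values are given as counts, as CPM, the counts scaled to a gate total of 1000000, and as the share of cells with at least 1 count. Counts were not divided by transcript length, so levels of different genes are not compared. Intervals are exact 95% intervals, Poisson for CPM, conditional binomial for a log2 ratio and Clopper-Pearson for a share, and they cover counting error only.

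Summed counts were 2785340 in mAG+ and 1604728 in mKO2neg, with 1699308 in mKO2low and 932007 in mKO2high. The median cell held 45095 counts in mAG+ and 24579 in mKO2neg, with 26809 in mKO2low and 14471 in mKO2high. Because a deeper cell shows more genes, shares were also taken after thinning each cell to 5000 counts, which left 45 mAG+ and 43 mKO2neg cells with 48 mKO2low and 39 mKO2high cells. Shares over all 48 cells of a gate include nearly empty cells, since 45 mAG+ and 43 mKO2neg cells, with 48 mKO2low and 44 mKO2high cells, had at least 1000 counts. The deposited gene labels were displaced by 1 gene, and each gene was read from the row of the gene before it in the GENCODE vM21 order. All 14 genes fixed for this check had more counts in that row than under their own label, Actb for example 25599 against 136. Of the 9 genes, 6 also had more counts in the preceding row, while Csf3r had 246 there and 1253 under its own label, Elane had 7 and 15, and Ctsg had none in either. Among 15 stem cell markers, Hlf, Mecom and Kit were counted in 157, 164 and 159 of the 192 cells. Others were counted in fewer cells, such as Hoxb5 in 44, Slamf1 in 35 and Fgd5 in 30. The blood cell gene Ptprc was counted in 136. Cd48, a marker of committed progenitors, was counted in 6. The proliferation gene Mki67 had 1864 counts in mAG+ and 108 in mKO2neg, with 9 in mKO2low and 4 in mKO2high. Of the 108 in mKO2neg, 80 were in 1 cell.

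The promoters of 3 granule genes are shown because 2 of them, Prtn3 and Elane, are neighbours on chromosome 10 and yet were counted in very different numbers of cells. Each runs from 250 bases before to 50 bases after the start that RefSeq gives (GRCm38.p6, plus strand), and the capitals mark GAGGAA, the core bound by PU.1, searched on either strand. The windows are chr11:87793534-87793833 for Mpo, chr10:79886062-79886361 for Elane and chr10:79879417-79879716 for Prtn3.
Mpo: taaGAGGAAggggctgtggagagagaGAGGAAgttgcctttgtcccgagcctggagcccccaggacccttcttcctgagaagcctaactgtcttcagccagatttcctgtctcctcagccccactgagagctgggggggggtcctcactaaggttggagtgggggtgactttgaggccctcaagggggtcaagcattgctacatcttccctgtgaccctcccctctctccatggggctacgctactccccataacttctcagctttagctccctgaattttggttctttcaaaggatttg
Elane: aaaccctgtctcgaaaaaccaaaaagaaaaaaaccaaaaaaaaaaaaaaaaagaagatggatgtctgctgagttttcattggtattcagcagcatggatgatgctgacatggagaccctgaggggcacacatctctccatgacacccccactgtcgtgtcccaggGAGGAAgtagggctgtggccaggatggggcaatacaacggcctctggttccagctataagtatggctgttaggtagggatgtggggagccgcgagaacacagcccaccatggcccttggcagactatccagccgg
Prtn3: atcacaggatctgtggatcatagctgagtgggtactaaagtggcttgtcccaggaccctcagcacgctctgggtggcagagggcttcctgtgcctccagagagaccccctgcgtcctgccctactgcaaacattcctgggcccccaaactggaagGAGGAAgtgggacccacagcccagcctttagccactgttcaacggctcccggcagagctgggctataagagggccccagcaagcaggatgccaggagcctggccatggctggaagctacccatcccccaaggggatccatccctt

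The Mpo window held GAGGAA at 2 places and the Elane and Prtn3 windows at 1 each. The Ctsg and Csf3r windows held 1 each, and those of Cebpa and Irf8, of which Irf8 has 2, held none. Of 32851 mouse promoters of the same length, 28.3% held the motif. The C/EBP motif TTNNGNAA, also searched on both strands, was in 40.7% of all promoters and in no window of these 7 genes. Both the Prtn3 and the Elane window held the motif, with Prtn3 counted in 148 cells and Elane in 2. RefSeq starts Prtn3 5191 bases from the start in GENCODE, so the 2 annotations differ on where its promoter lies.

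Prtn3 (ENSMUSG00000057729, chr10:79874476-79883174, plus strand, GRCm38) encodes a protease of neutrophil primary granules. It had 469 counts in mAG+ and 490 in mKO2neg, with 730 in mKO2low and 331 in mKO2high. It was counted in 38 mAG+ and 37 mKO2neg cells, and in 44 mKO2low and 29 mKO2high cells, of 48 each. The counts were spread over many cells, since the cell with the most held between 7.81% and 14.5% of its gate's sum. By gate sum, Prtn3 was at 168 CPM (153 to 184) in mAG+ and 305 CPM (279 to 334) in mKO2neg, with 430 CPM (399 to 462) in mKO2low and 355 CPM (318 to 396) in mKO2high. The mAG+ value was the lowest, and its interval met none of the other 3. The mKO2neg and mKO2high intervals overlapped. Over cells with at least 1000 counts, the median cell was at 159 CPM in mAG+ and 258 in mKO2neg, with 331 in mKO2low and 289 in mKO2high, the same order as the gate sums.

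Between the gates of a library, the log2 ratio of Prtn3 was -0.86 (-1.04 to -0.67) for mAG+ against mKO2neg and 0.27 (0.09 to 0.47) for mKO2low against mKO2high. A gene was called when its CPM differed at least 2-fold, its interval excluded 0 and it had at least 10 counts over both gates, and Prtn3 was not called in either comparison. Its ratio for mAG+ against mKO2neg lay between -0.96 and -0.74 in every alternative run for it. The share of cells depended on depth and on the cells kept, since thinning dropped cells under 5000 counts. It was 79.2% in mAG+ and 77.1% in mKO2neg, with 91.7% in mKO2low and 60.4% in mKO2high with all counts. With 5000 counts a cell it was 55.6% in mAG+ and 67.4% in mKO2neg, with 72.9% in mKO2low and 66.7% in mKO2high, and the intervals of the 4 gates overlapped. In mKO2high, 29 of 48 cells had Prtn3 with all counts and 26 of 39 after thinning.

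**Figure D1:**
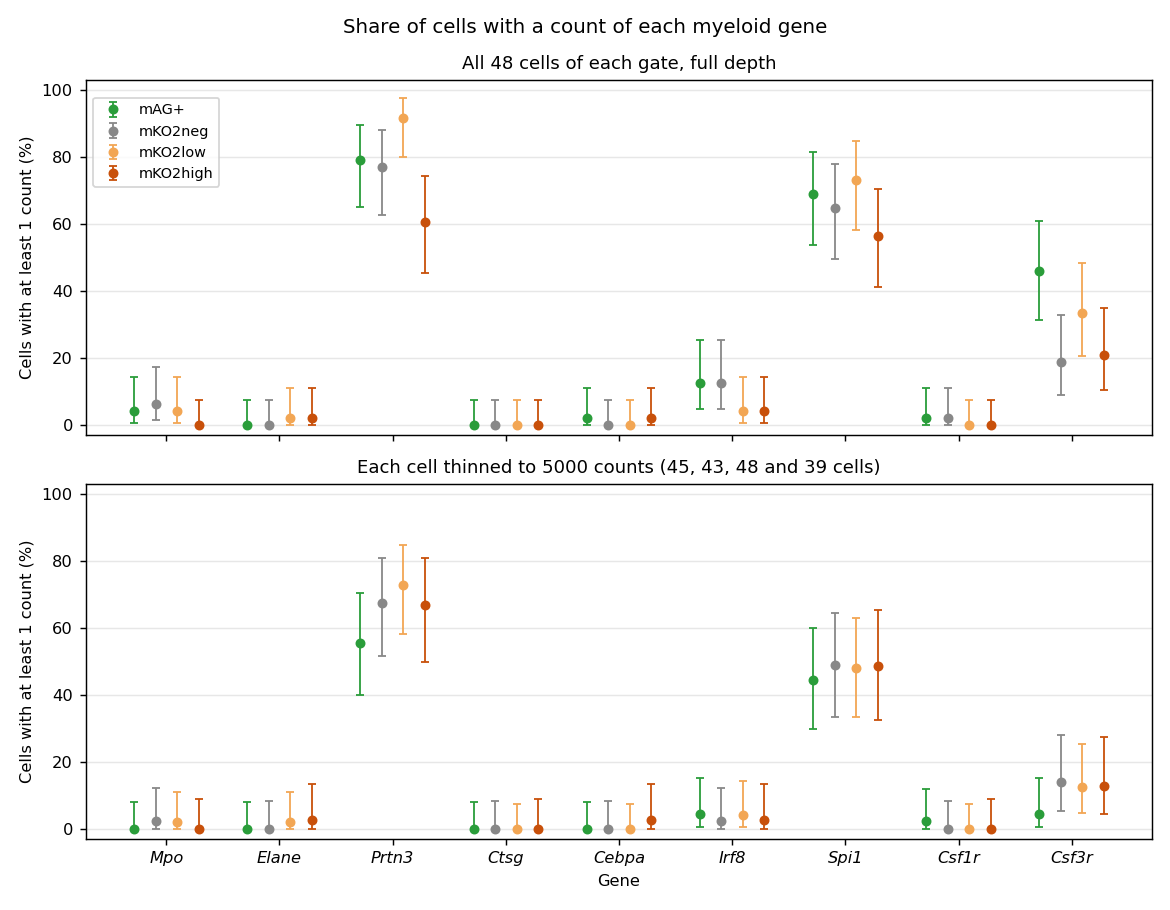
Share of cells with at least 1 count (percent, vertical axis) of each of the 9 genes in the 4 gates, with all counts above and after thinning each cell to 5000 counts below; points are shares and lines exact Clopper-Pearson 95% intervals. Prtn3 and Spi1 stand above all others in every gate. The Prtn3 share of mKO2high is 60.4% of 48 cells with all counts and 66.7% of the 39 cells kept at equal depth.

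The other granule genes were nearly absent. Mpo (ENSMUSG00000009350, chr11:87793581-87804413, plus strand), the peroxidase of primary granules, had 14 counts from 2 mAG+ cells and 5 from 3 mKO2neg cells, with 7 from 2 mKO2low cells and none from mKO2high. Of the 14 counts in mAG+, 13 were in 1 cell, and of the 7 in mKO2low, 6 were in 1 cell. Its share was 4.17% (0.509 to 14.3) in mAG+, 6.25% (1.31 to 17.2) in mKO2neg and 4.17% (0.509 to 14.3) in mKO2low, and 0 (0 to 7.40) in mKO2high. These shares could not be told apart at this depth. The log2 ratio of mAG+ to mKO2neg was 0.62 (-0.86 to 2.52).

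Elane (ENSMUSG00000020125, chr10:79886247-79888215, plus strand), which encodes neutrophil elastase, had no count in mAG+ or mKO2neg, 5 counts in 1 mKO2low cell and 2 counts in 1 mKO2high cell. Ctsg (ENSMUSG00000040314, chr14:56099881-56102574, minus strand), the cathepsin G gene, had no count in any gate, a share of 0 (0 to 7.40) in each. Prtn3 thus supplied 98.4% of the counts of the 4 granule genes. Their sum was 483 counts in mAG+ and 495 in mKO2neg, with 742 in mKO2low and 333 in mKO2high. Its log2 ratio was -0.83 (-1.01 to -0.65) for mAG+ against mKO2neg and 0.29 (0.10 to 0.48) for mKO2low against mKO2high, so the sum followed Prtn3. No cell had counts of both Mpo and Elane, while 6 of the 7 cells with Mpo and 1 of the 2 with Elane also had Prtn3.

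Spi1 (ENSMUSG00000002111, chr2:91082390-91115756, plus strand), the PU.1 gene, had 333 counts in mAG+ and 378 in mKO2neg, with 274 in mKO2low and 357 in mKO2high. It was counted in 33 mAG+ and 31 mKO2neg cells, and in 35 mKO2low and 27 mKO2high cells, of 48 each. At 5000 counts a cell the shares were 44.4% in mAG+ and 48.8% in mKO2neg, with 47.9% in mKO2low and 48.7% in mKO2high, and their intervals overlapped widely. By gate sum it was at 120 CPM (107 to 133) in mAG+ and 236 CPM (212 to 261) in mKO2neg, with 161 CPM (143 to 182) in mKO2low and 383 CPM (344 to 425) in mKO2high. None of the 4 intervals, which cover counting error only, overlapped, with mAG+ lowest and mKO2high highest. Over cells with at least 1000 counts, the median cell was at 72.4 CPM in mAG+ and 135 in mKO2neg, with 148 in mKO2low and 161 in mKO2high. By this measure mKO2neg was below mKO2low, the reverse of the gate sums.

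The difference of Spi1 between mKO2low and mKO2high was a log2 ratio of -1.24 (-1.48 to -1.02), past the 2-fold limit. Of the 357 counts in mKO2high, 24.4% were in 1 cell. Without each gate's top cell the ratio was -1.06, and without each gate's deepest cell it was -1.28, both past the 2-fold limit. With equal weight for each cell the ratio was -0.48. At 5000 counts a cell it was -0.09, from 53 and 46 counts, so the call did not hold at equal depth. Thinning also gave each cell the same weight and dropped shallow cells, so the part of depth alone was not tested. For mAG+ against mKO2neg the log2 ratio of Spi1 was -0.98 (-1.20 to -0.76), just short of 2-fold. It was -0.62 at equal depth, -1.03 with equal weight for each cell and -1.31 when each gate's deepest cell was left out, and it was below 0 in every alternative run for it.

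**Figure D2:**
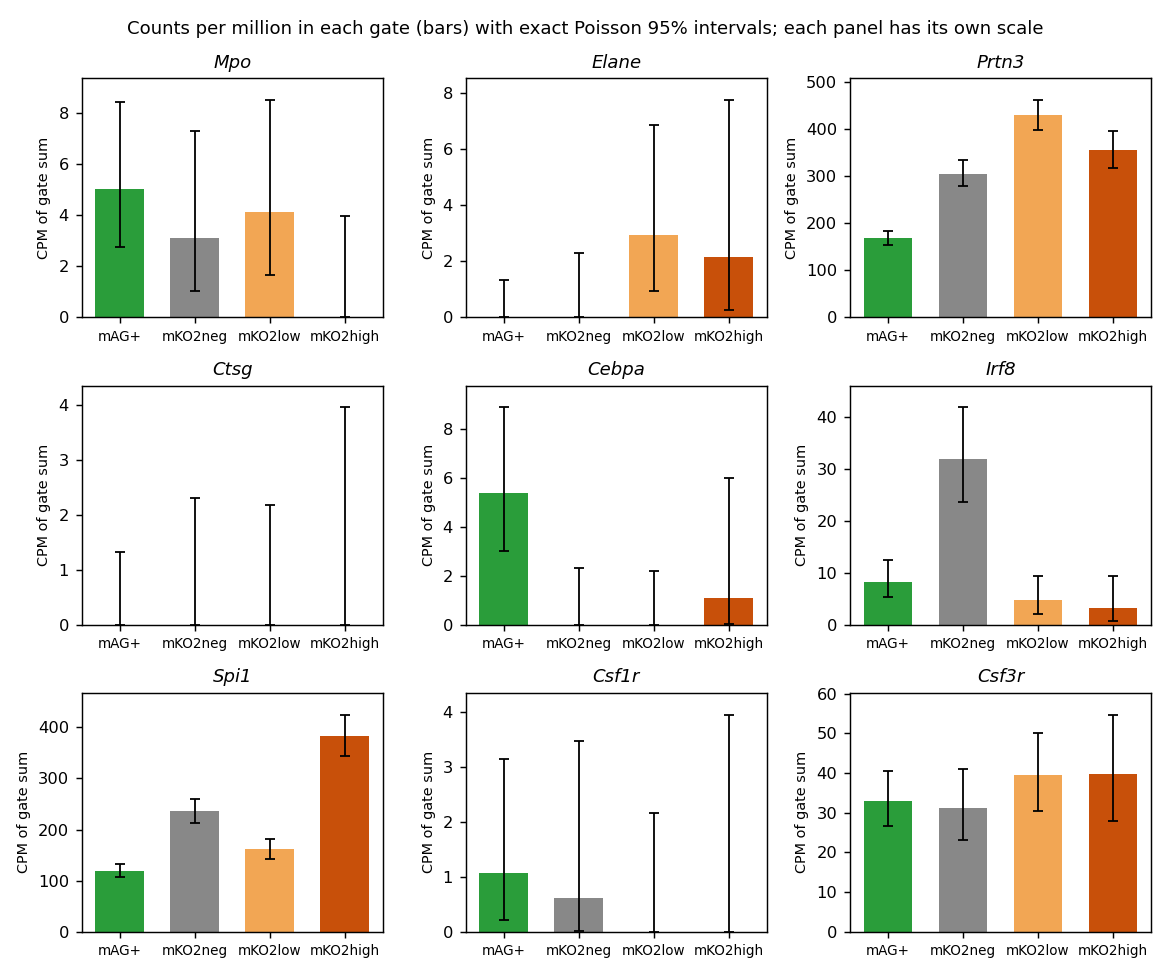
CPM of the gate sum (vertical axis, a scale of its own in each panel) for the 9 genes in the 4 gates; bars are the values and lines exact Poisson 95% intervals. Prtn3 is lowest in mAG+ at 168 CPM, Spi1 is highest in mKO2high at 383 CPM and Irf8 is highest in mKO2neg at 31.8 CPM.

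Irf8 (ENSMUSG00000041515, chr8:120736358-120756694, plus strand) had 23 counts from 6 mAG+ cells and 51 from 6 mKO2neg cells, with 8 from 2 mKO2low cells and 3 from 2 mKO2high cells. The gate sums came to 8.26 CPM (5.23 to 12.4) in mAG+ and 31.8 CPM (23.7 to 41.8) in mKO2neg, with 4.71 CPM (2.03 to 9.28) in mKO2low and 3.22 CPM (0.664 to 9.41) in mKO2high. The mKO2neg interval lay above the other 3, which overlapped. The log2 ratio of mAG+ to mKO2neg was -1.89 (-2.72 to -1.21), past the 2-fold limit, although the share of cells was 12.5% in both gates. The difference was thus in counts per cell with a count, with a median of 3 in mAG+ and 7 in mKO2neg. In mKO2neg, 23 of the 51 counts were in 1 cell, and without the top cell of each gate the ratio was -1.71, from 14 counts against 28. With equal weight for each cell it was -1.18, and at 5000 counts a cell only 3 counts in mAG+ and 1 in mKO2neg remained, too few for a ratio. Between mKO2low and mKO2high it was 0.46 (-1.51 to 3.10).

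Cebpa (ENSMUSG00000034957, chr7:35119293-35121928, plus strand) had 15 counts in mAG+, none in mKO2neg or mKO2low and 1 in mKO2high. All 15 counts of mAG+ were in 1 cell. The level was 5.39 CPM in mAG+ and 0 in mKO2neg, the interval of the log2 ratio had a lower limit of 1.05 and no upper limit, and this call rests on that cell alone. No ratio could be formed without it. In that cell, 58 Prtn3 counts and 116 counts of the stem cell gene Hlf stood beside the 15 of Cebpa.

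Csf3r (ENSMUSG00000028859, chr4:126024550-126044440, plus strand), the G-CSF receptor, had 92 counts from 22 mAG+ cells and 50 from 9 mKO2neg cells, with 67 from 16 mKO2low cells and 37 from 10 mKO2high cells. By gate sum it was at 33.0 CPM (26.6 to 40.5) in mAG+ and 31.2 CPM (23.1 to 41.1) in mKO2neg, with 39.4 CPM (30.6 to 50.1) in mKO2low and 39.7 CPM (28.0 to 54.7) in mKO2high. All 4 intervals overlapped. The log2 ratio was 0.08 (-0.43 to 0.61) for mAG+ against mKO2neg and -0.01 (-0.61 to 0.61) for mKO2low against mKO2high. With all counts the share of cells was 45.8% in mAG+ and 18.8% in mKO2neg. At 5000 counts a cell it was 4.44% in mAG+ and 14.0% in mKO2neg, from 2 and 6 cells. The order of the shares was thus reversed in that 1 random draw, but the intervals overlapped (0.543 to 15.1 in mAG+ and 5.30 to 27.9 in mKO2neg). With equal weight for each cell the log2 ratio of mAG+ to mKO2neg was 0.24. The log2 ratio at equal depth was -1.64 for mAG+ against mKO2neg, from 2 and 8 counts, and 0.85 for mKO2low against mKO2high, from 12 and 5 counts.

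Csf1r (ENSMUSG00000024621, chr18:61100598-61132149, plus strand), the M-CSF receptor of monocytes and macrophages, had 3 counts in 1 mAG+ cell, 1 count in 1 mKO2neg cell and none in mKO2low or mKO2high. The last 500 bases of Csf1r lie within exons of Hmgxb3 on the other strand. Whether the authors' counting used strand is not given, and reads of the 2 genes there could be told apart only with strand.

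**Figure D3:**
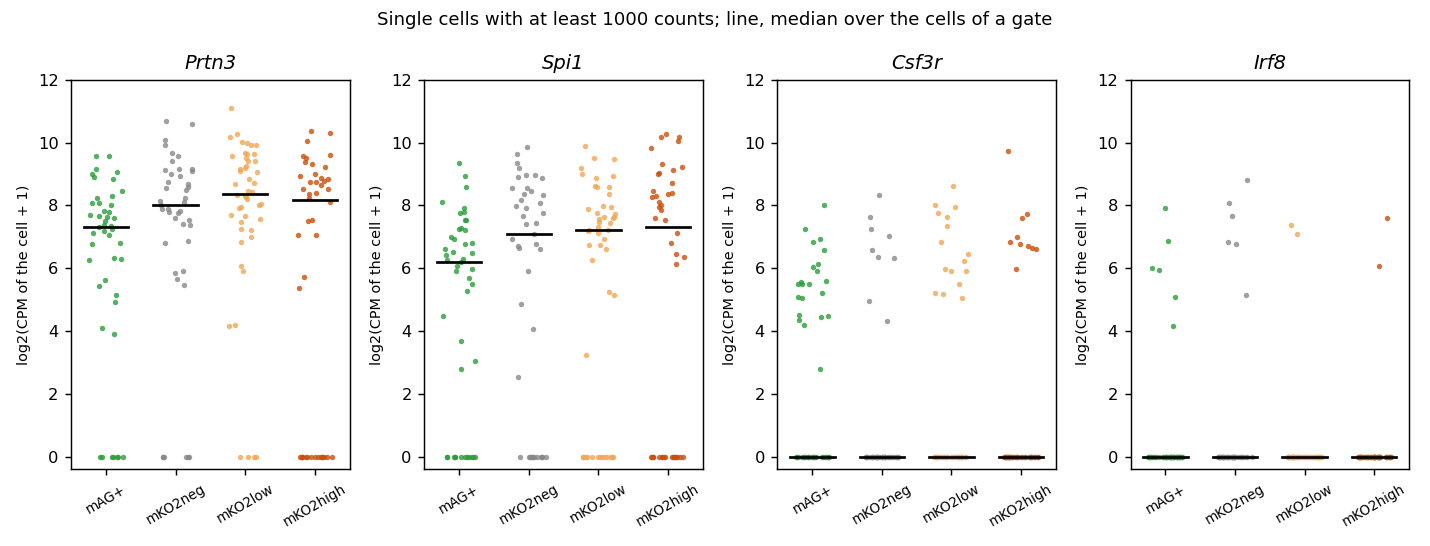
Level of Prtn3, Spi1, Csf3r and Irf8 in single cells with at least 1000 counts, as log2(CPM of the cell + 1) on the vertical axis; points are cells of the 4 gates, with sideways scatter for legibility, and lines are medians. The median line lies above 0 for Prtn3 and Spi1 in every gate and at 0 for Csf3r and Irf8.

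Of the 9 genes, 6 had at least 10 counts over mAG+ and mKO2neg. Of these, 1 was called higher in mAG+ (Cebpa) and 1 lower (Irf8), where 19.4% of 12115 genes were called higher and 13.8% lower. Between mKO2low and mKO2high 4 had enough counts. None was called higher and 1 lower (Spi1), where 16.6% of 10901 genes were called higher and 13.7% lower. These counts are too small to be read against the shares of all genes. The median log2 ratio was -0.39 over the 6 genes and 0.06 over all genes for mAG+ against mKO2neg, and over the genes it was 0.083 without the minimum of 10 counts. For mKO2low against mKO2high it was 0.13 over the 4 genes and 0.05 over all.

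**Figure D4:**
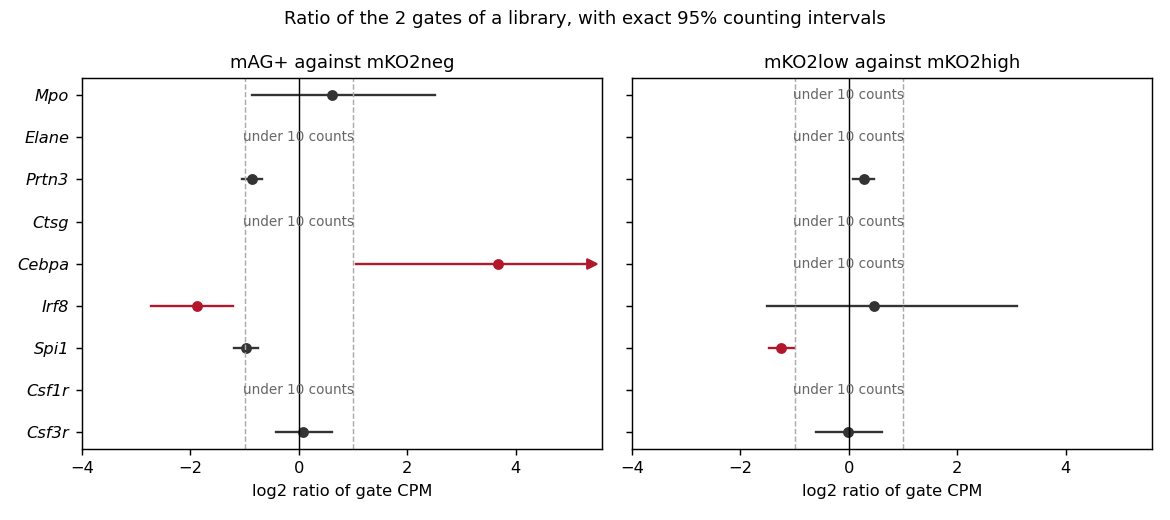
Log2 ratio of gate CPM (horizontal axis) for mAG+ against mKO2neg and for mKO2low against mKO2high, with exact conditional binomial 95% intervals; dashed lines mark 2-fold, red marks calls and the arrow an interval without an upper limit. Irf8 at -1.89 and Cebpa, with all its counts in 1 cell, are called in the first comparison and Spi1 at -1.24 in the second.

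Across single cells, 23 of 192 had no count of any of the 9 genes, 41 had 1 gene, 75 had 2, 44 had 3, 8 had 4 and 1 had 5. Most often the genes found together were Spi1 and Prtn3, in 110 cells. Of the 57 cells with Csf3r, 49 also had Prtn3 and 44 had Spi1. At 5000 counts a cell Spi1 and Prtn3 were found together in 54 of 175 cells, Spi1 alone of the pair in 29 and Prtn3 alone in 61. The correlation of their log2(count + 1) over these 175 cells was 0.05, that of Prtn3 with Csf3r 0.13 and that of Spi1 with Csf3r 0.17. These values are descriptions, from cells of 2 libraries and with few counts per cell.

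Mpo, Elane, Cebpa, Irf8 or Csf1r was counted in 27 cells, 10 of mAG+, 9 of mKO2neg, 5 of mKO2low and 3 of mKO2high. The mAG+ cell with 13 Mpo counts also had 15 of Csf3r and 81 of Hlf, and none of Prtn3 or Spi1. The mKO2low cell with 6 Mpo counts had 46 of Prtn3, 15 of Csf3r and 30 of Hlf. The mKO2neg cell with 23 Irf8 counts had 68 of Spi1, its gate's top cell for both genes. Of these 27 cells, 25 had a count of Hlf.

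Of the counts of mature neutrophil and lymphoid markers (Cd79b left out), 83.2% over all gates were in 5 cells with at least 50 such counts. By gate these cells held 91.4% in mAG+ and 81.8% in mKO2neg, with 40% in mKO2low and 50.4% in mKO2high. The markers were not confined to them, since Camp was counted in 58 of the 192 cells and S100a8 in 40. An mKO2neg cell with 577 counts of Camp, a protein of neutrophil secondary granules, held 3 of the gate's 5 Mpo counts and 4 of its 51 Irf8 counts. A mAG+ cell with 250 counts of Dntt, the enzyme that adds bases at antigen receptor joints, held 9 of the gate's 23 Irf8 counts. A mKO2high cell with 66 counts of neutrophil markers held both Elane counts of its gate. The other 2 cells, 1 of mAG+ and 1 of mKO2low, had none of Mpo, Elane, Cebpa, Irf8 or Csf1r. All 10 neutrophil markers had counts, and their summed level was 275 CPM in mAG+ and 538 in mKO2neg, with 90.6 in mKO2low and 128 in mKO2high. Of 13 lymphoid markers, 9 had counts and the T cell genes Cd3e, Cd3g and Trbc1 had none. Their summed level lay between 95.5 CPM in mKO2high and 375 CPM in mAG+. This sum includes Cd79b, which alone was at 71.9 CPM in mKO2high and 78.6 CPM in mAG+. Without the 5 cells the log2 ratio of Irf8 in mAG+ against mKO2neg was -2.32, from 14 counts against 47. Without them Mpo was at 1.78, against 0.62 with them, from 14 counts in mAG+ against 2 in mKO2neg. Spi1 was at -1.05, which is past the 2-fold limit, Prtn3 at -0.74, the granule sum at -0.70 and Csf3r at 0.05. For mKO2low against mKO2high, Spi1 was at -1.20 and Prtn3 at 0.26. The Mpo shares were then 4.35% in mAG+ and 4.26% in mKO2neg, with 4.26% in mKO2low and 0 in mKO2high.

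**Figure D5:**
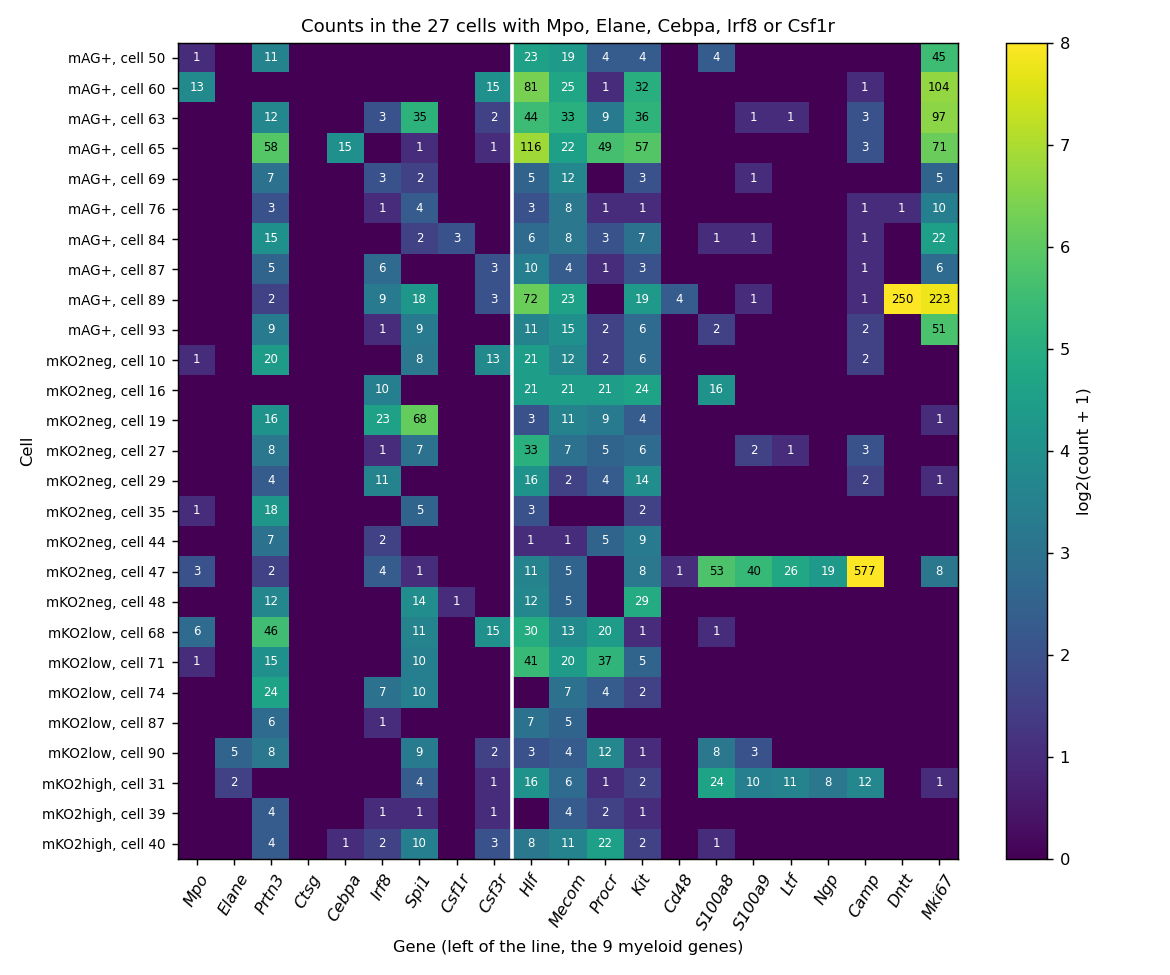
Counts (numbers, empty where 0) and log2(count + 1) (colour) in the 27 cells with a count of Mpo, Elane, Cebpa, Irf8 or Csf1r, in rows by gate; the 9 myeloid genes are left of the line and other markers right of it. Most of these cells have Prtn3 and Hlf, and neutrophil markers are concentrated in mKO2neg cell 47 (Camp 577) and mKO2high cell 31, with Dntt in mAG+ cell 89 (250 counts).

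Genes whose counts ran most like those of the 4 granule genes were sought among 6303 genes over the 175 cells thinned to 5000 counts. Among those with the highest Pearson correlation were Arfgef1 at 0.27, Tmem176b, Gpr171, Eya2, Sytl1, Vps26c, Lyz2, Rnf145 and Enpp5, of which Enpp5 was at 0.24. For Spi1 the highest were Abr at 0.31, Cyp4f16 at 0.29 and Klhl23 at 0.27. For Irf8, which had counts in 6 of these cells, they were Tcte3, Smarcc2 and Zw10, between 0.33 and 0.36. None of these likenesses was strong, and the points share library and gate.

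A list of 15 genes was measured under the heading of granule biogenesis, whether or not each is known to act in it. Srgn, the proteoglycan that packs granule proteases, was counted in 46 mAG+ and 44 mKO2neg cells and in 48 mKO2low and 45 mKO2high cells. Ctsc, the enzyme that activates the granule proteases, was counted in 31 mAG+ and 22 mKO2neg cells, and in 20 mKO2low and 19 mKO2high cells. Its log2 ratios, -0.37 for mAG+ against mKO2neg and -0.46 for mKO2low against mKO2high, were not called. For mAG+ against mKO2neg, 2 of 11 measured genes were called higher, Hp at 2.96 and Dpp4 at 1.04, and 1 lower, Igfbp4 at -1.13, beside 19.4% of all genes higher and 13.8% lower. With equal weight for each cell Dpp4 was at 0.39, under the 2-fold limit. For mKO2low against mKO2high, 2 of 11 were called higher, Plac8 at 1.91 and Nkg7, which had 27 counts against 0. Of the Nkg7 counts of mKO2low, 51.9% were in 1 cell. Called lower were Dpp4 at -1.55 and Ms4a3, with all 14 counts of mKO2high in 1 cell, beside 16.6% of all genes higher and 13.7% lower. At equal depth Plac8 was at 0.92. The list's median log2 ratio was 0.33 for mAG+ against mKO2neg (0.06 over all genes) and 0.08 for mKO2low against mKO2high (0.05 over all genes).

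Of 25 other transcription factors and cofactors of blood cells, 21 were measured in each comparison. Against mKO2neg, 8 were called lower in mAG+ and 2 higher, beside 13.8% of all genes lower and 19.4% higher, and the median was -0.58 against 0.06 over all genes. Egr1, an immediate early factor that can favour monocytes, had 167 counts from 32 mAG+ cells and 316 from 28 mKO2neg cells, a log2 ratio of -1.71. Myc, a growth regulator, was at -1.04 and Cebpb, a factor of emergency granulopoiesis, at -1.77, with 18 counts against 37. Cebpd, Irf4, Irf5, Rara and Gata1 were also called lower, from 18 counts or fewer in all but Irf5, which had 2 against 27. Of their mKO2neg counts, 1 cell held 76.9% for Gata1, 72.7% for Irf4 and 64.3% for Cebpd. Higher were Cbfb, the partner of the RUNX factors, at 1.79 with 363 counts against 60, and Zfpm1, a cofactor of GATA factors, at 1.43, which was 0.46 at equal depth.

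Between mKO2low and mKO2high, 3 of the 21 factors were called higher (Cebpg at 1.47, Klf4 at 1.34 and Gata1) and 3 lower (Cebpd at -2.44, Gfi1 at -2.31 and Irf5 at -1.39), beside 16.6% of all genes higher and 13.7% lower, with a median of 0.48 (0.05 over all genes). With cells weighted equally Irf5 was at -0.49, and it turned to 1.35 at equal depth, from 8 counts against 2. In the gate where each was higher, 1 cell held 88.9% of the Cebpd, 64% of the Klf4 and 59.5% of the Irf5 counts. At equal depth only 2 Klf4 counts in mKO2low and 1 in mKO2high remained, too few for a ratio. All 13 Gata1 counts of mKO2low were in 1 cell, as were all 11 Gfi1 counts of mKO2high. Runx1 and Gata2, factors of blood stem cells, were counted in 102 and 151 of the 192 cells and were not called in either comparison. Cebpe, a factor of late granulocyte maturation, had 8 counts in 3 mAG+ cells and none in the other gates.

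Of 15 cytokine receptors, 1 of 14 measured was called higher in mAG+ than in mKO2neg (Ifngr2 at 1.04) and 1 lower (Csf2rb at -1.94, with 18 of the 22 mKO2neg counts in 1 cell), beside 19.4% of all genes higher and 13.8% lower. In mKO2low against mKO2high 1 of 13 was called, Il3ra, with 26 counts against 0. Csf2ra, the GM-CSF receptor subunit, was counted in 26 mAG+ and 24 mKO2neg cells, and in 23 mKO2low and 25 mKO2high cells. Flt3, a receptor of early progenitors, was counted in 15 mAG+ and 11 mKO2neg cells, and in 8 mKO2low and 3 mKO2high cells. By gate sum Flt3 was lower in mAG+ (23.3 CPM) than in mKO2neg (39.3 CPM), the reverse of the cell numbers. That log2 ratio, -0.74 (-1.27 to -0.23), was not called. In mKO2low Flt3 was at 8.83 CPM and in mKO2high at 6.44 CPM. Of 16 genes that signal below these receptors, Grb2 at 1.77, Jak2 at 1.23 and Socs1 at 1.22 were called higher in mAG+ and Socs3 at -2.53 lower, of 15 measured, beside the same 19.4% and 13.8% of all genes. With equal weight for each cell Jak2 was at 0.44 and Socs1 at 0.45, under the 2-fold limit, and 1 cell held 50% of the Socs3 counts of mKO2neg. None of 15 was called between mKO2low and mKO2high.

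Among 17 genes of monocytes and dendritic cells, Lyz2, the lysozyme of myeloid cells, was counted in 44 mAG+ and 41 mKO2neg cells and in 47 mKO2low and 39 mKO2high cells. It was at 592 CPM in mAG+ and 1046 in mKO2neg, with 1032 in mKO2low and 1060 in mKO2high, lowest in mAG+, with a log2 ratio of -0.82 (-0.92 to -0.72) for mAG+ against mKO2neg. Cst3, a secreted protease inhibitor, was counted in 169 of the 192 cells and was at 0.03, and Tcf4, a factor of plasmacytoid dendritic cells, was counted in 123 and was at 0.42. Lyz1 is nearly identical to Lyz2 in sequence and had 1 count, so how reads were divided between Lyz1 and Lyz2 is uncertain. Ly6c2, Ccr2 and Fcgr1 had 1 count each. In mAG+ against mKO2neg, 1 of 6 measured was called higher (F13a1, 11 counts in 1 cell) and 1 lower (Cd74 at -1.06, and -0.23 at equal depth), beside 19.4% and 13.8% of all genes. In mKO2low against mKO2high, 1 of 7 was called higher and 2 lower, beside 16.6% of all genes higher and 13.7% lower. Higher was Fcgr3, with 12 counts from 2 cells against 0. Lower were the antigen presentation genes Cd74 at -2.08 and H2-Aa at -2.03. H2-Aa was at -1.03 at equal depth and at -0.95 with equal weight for each cell. For Cd74, 67.4% of the mKO2high counts were in 1 cell, and the ratio was -0.57 at equal depth.

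Calls of this kind often rest on few cells. Of all genes called in mAG+ against mKO2neg, 25.9% of those higher and 44.3% of those lower had over 50% of the higher gate's counts in 1 cell. For mKO2low against mKO2high the shares were 27.3% of those higher and 43.9% of those lower. Among the 9 genes this holds for Cebpa, and for neither Irf8 (45.1%) nor Spi1 (24.4%).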

How the data were processed

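RNA of single bone marrow cells was measured by a Smart-seq2 method with enrichment of transcript 3' ends, per the labels' protocols. The authors deposited whole-number counts per gene and cell without normalization. Per the submitters' processing notes the tools were HISAT2, HTSeq 0.11.3 and Seurat and the build mm10; their roles, the annotation release, filters, strand setting and any molecular identifiers were not given in the sources used here. Counts over the 53273 of 53378 rows found by ID in GENCODE vM21 were used; the other 105 held 0.222% of the counts. Gates came from the deposited cell table, whose mKO2hi was read as mKO2high.

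Each gene was read from the row before it, because rows under their own labels held 52.0% of counts in protein-coding genes and displaced rows 92.8%. Counts were summed per gate; log2 ratios used a prior count of 1. Thinning to 5000 counts used 1 random draw. The floor was 3 counts, and calls needed 10 counts. No cells were identical and none were shared by the libraries; no doublet caller was run on these singly sorted or transferred cells. The ratio and its interval were tested on gate sums simulated with Poisson error, the same error the interval assumes. That test could not show how the interval behaves when counts are clumped in single cells. Python 3.11.15, numpy 2.4.6, pandas 2.3.3, scipy 1.17.1, R 4.3.3, edgeR 4.0.16 and DESeq2 1.42.0 (the last 2 for scaling factors only) were used.

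The named genes were the 9 members, the genes most like the granule genes, Irf8 and Spi1 by correlation, the called genes of each list and up to 4 highest of each; of these last, and of others, some are described only by count, and 1 gene that the rule names is not reported here. Ctsc, Flt3, Cebpe, Csf2ra, Ly6c2, Ccr2, Fcgr1, Hoxb5, Slamf1 and Fgd5, and the 27 and 5 cells described, were chosen after their values were seen. The members and lists were chosen with earlier results of these data known. Protein sequences and the promoters of Spi1 and Csf1r were not used here. Alternatives were other scaling, equal weight of cells, equal depth, filters, leaving out single cells and the own label.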

Additional observations from a re-analysis of the deposited data

How the results depend on the processing

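Of 72 alternative values of the granule gene sum, the median ratio and the Mpo shares, 63 stayed within the counting interval. Under the genes' own labels the granule genes held few counts over all gates, 15 for Elane, 7 for Prtn3 and none for Mpo or Ctsg. The granule sum of mAG+ against mKO2neg changed sign under those labels, at 0.17. The median ratio there changed sign without a filter on low counts, at 0.083, and under the own labels, at 0.32 over 2 genes. It was -0.78 at equal depth, over 3 genes, and -0.89 without each gate's top cell for each gene, over 4. That of mKO2low against mKO2high was -0.04 without each gate's top cell for each gene. For mKO2low against mKO2high the sum was 0.54 with equal weight for each cell and 0.91 under the own labels. The Mpo share of mAG+ was 0 at 5000 counts a cell, and under the own label it was 0 in mAG+, mKO2neg and mKO2low. Of 105 values of single genes, 97 stayed within, and the others were Irf8 and Spi1 as given above, Prtn3 at 0.53 with equal weight in mKO2low against mKO2high, and Csf3r at -1.64 for mAG+ against mKO2neg and 0.85 for mKO2low against mKO2high at equal depth, from 2 to 12 counts a gate. The cause was not tested. Leaving out cells with neutrophil or lymphoid markers was added after seeing the data. No paired analysis was possible because each gate is 1 sample with no replicate number. With 1 sample a gate, no value has a replicate check. Depth limits the rare genes: 3 counts are 1.08 CPM in mAG+ and 1.87 in mKO2neg, with 1.77 in mKO2low and 3.22 in mKO2high.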
